A study of Mus musculus with 15 samples.

Results

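Diplotene and dividing spermatocytes are the germ cells that leave the long pachytene stage of meiotic prophase and pass through the meiotic divisions. They were chosen here from single-cell RNA-seq of mouse testis by marker detection. A member cell had at least 500 genes, at least 1000 unique molecular identifiers (UMIs, each counting 1 captured transcript) and under 30% mitochondrial UMIs. It also had at least 1 UMI of at least 3 of the 6 genes Aurka, Cdk1, Rhcg, Dnaic2, Spc25 and Nkx2-4, at least 1 of these being Rhcg, Dnaic2 or Nkx2-4, and under 10% of its UMIs from Prm1, Prm2, Tnp1 and Tnp2. Of 76494 cells kept by the first 3 limits, 5020 (6.56%) were members.

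Testes came from DBA/2J males in 5 groups of 3 mice, with 1 library per mouse. Group T received JQ1 at 50 mg/kg by daily intraperitoneal injection for 3 wk and was sampled at once, at 10 wk of age. VC-T received vehicle on the same schedule and was sampled at the same age. R received the same JQ1 course and was sampled 6 wk after its last dose, at 16 wk, and VC-R was its vehicle group of that age. UC mice were untreated and 15 wk old, so that age and injection differ between T and UC and cannot be told apart from the drug in that comparison alone.

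During diplotene the synaptonemal complex, which holds homologous chromosomes together along their length, comes apart, and the homologues stay joined at their crossovers. Cyclin-dependent kinase 1 with its cyclins, Aurora kinases and Polo-like kinase 1 then drive spindle assembly and the divisions. The X and Y chromosomes are transcriptionally silenced in pachytene and diplotene cells, and spermatocytes make and store much of the RNA that later serves the haploid spermatid. JQ1 occupies the acetyl-lysine pocket of BET bromodomain proteins, a family to which BRDT, found in male germ cells, and the widely expressed BRD2 and BRD3 belong.

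Libraries held 9673587 to 98724982 UMIs over all barcodes, and 94 to 726 members each. The groups held 1623 (T), 810 (VC-T), 1489 (R), 621 (VC-R) and 477 (UC) members. The library labelled VC-T replicate 1 stood apart from its group. Transcripts of 9 late spermatid genes made up 0.228% of the UMIs of its kept cells, against 0.143% to 0.279% in T and 10.2% to 12.7% in the other 11 libraries. In its members they made up 0.0753%, against 0.0375% to 0.0733% in T and 0.441% to 1.47% in the others, and in pachytene-marker, round-spermatid-marker and spermatogonia-marker cells it lay within the T range and outside that of the others. In these transcripts it lay with T and not with its labelled group. The paper treats this library as an outlier and attributes its deviation to technical variation. Whether its label holds was not tested here. The library was left out of the gene tests, and results that touch it are given with its own value. In any pair of libraries, kept cells shared at most 31 barcodes and at most 0.549% of the smaller library's cells, and 4 barcodes of members were shared over all pairs.

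The label was checked against markers the rule did not use. Of 7 pachytene markers, Shcbp1l was detected in 94.1% of members, Sycp1 in 71.2%, Piwil1 in 66.6%, Hormad1 in 66.0%, Mybl1 in 58.3%, Pou5f2 in 52.1% and Tdrd5 in 34.2%, whereas leptotene and zygotene markers were detected in at most 1.91% apart from Meiob (12.2%). The 6 round spermatid markers ranged from Izumo1 in 13.5% to Spaca1 in 38.7%, which overlaps Tdrd5. Somatic markers were rare apart from the Sertoli transcript Defb19 (16.1%). Sycp1 was found in 72.6% of spermatogonia-marker cells as well, so its share does not set members apart from them. Late spermatid transcripts were widespread in both sets when cells were pooled over libraries, though libraries differed widely, with Prm1 in 12.1% to 100% of members (median over libraries 100%) and in 5.0% to 100% of spermatogonia-marker cells. Pooled, Prm1 was found in 69.8% of members and 72.2% of spermatogonia-marker cells, and Tnp1, Tnp2 and Prm2 in 66.8% to 71.6% of either, whereas Smcp (70.3% and 55.0%), Gapdhs (56.1% and 39.3%), Oaz3 (48.3% and 35.3%), Odf1 (32.3% and 19.9%) and Tssk6 (26.3% and 20.2%) were more frequent in the deeper members.

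Detection of the rule's genes only describes the choice. Aurka, the Aurora A kinase, was detected in 94.0% of members, Dnaic2, a dynein intermediate chain, in 75.4%, Cdk1 in 75.1%, Rhcg, an ammonium transporter, in 59.0%, Spc25, a kinetochore protein, in 56.4%, and Nkx2-4, a homeobox gene, in 39.8%. Spermatogonia-marker cells held Dnaic2 in 0.735% and Rhcg in 1.84% of cells at a median of 2951.5 UMIs per cell (median over libraries), against 11466 UMIs per member, a contrast that the rule itself chose on. Exactly 3 were detected in 2071 members (41.3%) and all 6 in 555 (11.1%). Just outside the rule lay 2462 cells with 2 of the markers, whose median UMI count in a library was 2265 to 8947 (median over libraries 5195), against 4521 to 15618 (8926) for members with exactly 3, and 461 cells with Aurka, Cdk1 and Spc25 alone. The rule therefore took deep cells more readily than shallow ones, and counts of members are given below also after thinning every cell to 2000 UMIs.

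For genes that mark meiotic stages, members were set beside 7374 pachytene-marker cells and 12536 round-spermatid-marker cells, none of which were members. Pachytene-marker cells had at least 4 of 7 pachytene markers and under 3 of 6 round spermatid markers. Round-spermatid-marker cells had at least 4 of these 6. Both sets had under 10% of UMIs from Prm1, Prm2, Tnp1 and Tnp2. Members had no limit on round spermatid markers, and 1307 of them held 3 or more. Values are medians over libraries of counts per 1000000 UMIs (CPM) in the summed cells, given as description because the sets were chosen on expression. Ccnb1, the cyclin partner of CDK1, was at 118 in members against 23.6 in pachytene-marker and 79.9 in round-spermatid-marker cells. Ccna1, the germ cell cyclin A, was at 281 against 71.2 and 116, and other cyclin genes are not given here. Plk1, the Polo-like kinase, was at 96.0 against 17.2 and 42.3. Aurkb and Aurkc, the Aurora kinases of the chromosomal passenger complex, were at 36.3 and 45.3 in members, against 7.35 and 22.6 in pachytene-marker cells.

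The genes of chromosome axes and synapsis named here were lower in members than in pachytene-marker cells, and the rest of their list was not counted. Sycp1 and Hormad1 were among the markers that chose the pachytene-marker cells. Sycp1, the transverse filament of the synaptonemal complex, was at 177 in members (139 to 250) against 756 in pachytene-marker and 255 in round-spermatid-marker cells. Sycp3, an axial protein, was at 308 against 546, Hormad1 at 131 against 354, and Tex12, a central element protein, at 15.2 against 110. Checkpoint genes were closer together, with Cdc20, the activator of the anaphase-promoting complex, at 233 against 164 and Pttg1, which encodes securin, at 254 against 172, and both were under 60 in round-spermatid-marker cells at 57.1 and 54.7. Brdt was at 165 in members, below pachytene-marker cells (273) and above round-spermatid-marker cells (103).

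Among the 15 genes that led members over pachytene-marker cells, A930018P22Rik stood highest, with a median log2 ratio of 2.97 over libraries (2.13 to 3.48, with 5 CPM added to each level), followed by the rule genes Dnaic2 (2.88) and Rhcg (2.63), Tex36 (2.39), Armh2 (2.35), Spag6, a protein of the sperm axoneme (2.28), and Ccnb1 (2.26). The rest of the 15 were 1700020L24Rik, 4921504E06Rik, 1700019G24Rik, Slxl1, Plk1, Kbtbd11, Krt88 and 4930483J18Rik, at 2.10 to 2.21. Tex36 is among the round spermatid markers that limited the choice of pachytene-marker cells, so that choice favoured its lead. Against round-spermatid-marker cells the leaders were 4930581F22Rik (3.96), Pou5f2, a POU-domain factor of spermatocytes (3.78), Mllt10 (3.60), Mphosph8, Arl6ip1, D030056L22Rik, Magi2, Tchp, Cdk1, Cdca8, Calm2, Phf2, Gmnn, Sap30 and Tcam1 (3.12).

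Members held more RNA than pachytene-marker cells of the same library. Their median UMI count was 1.24 to 2.58 times as high, with a median ratio of 1.53, which the rule's demand for 3 detected markers also favours. In cells thinned to 2000 UMIs, 1247 to 1314 genes were detected per member and 1281 to 1366 per pachytene-marker cell, fewer in members in 15 of 15 libraries. Mitochondrial transcripts were 0.752% to 1.09% of UMIs in members and 1.43% to 2.14% in pachytene-marker cells, without overlap between libraries.

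Among members, those with many spermatid markers differed from the rest. Members were split by the 6 round spermatid markers, which the rule did not use, into 1753 cells with none, 1960 with 1 or 2 and 1307 with 3 or more. X-linked genes gave a median of 0.0763% of UMIs with none (0.0431% to 0.113% over libraries), 0.101% with 1 or 2 and 0.657% with 3 or more (0.418% to 0.823%). The last share was higher in 15 of 15 libraries, at a median ratio of 8.64. Spermatogonia-marker cells gave 1.86% and round-spermatid-marker cells 1.40%, so members with many spermatid markers lay between the low level of silenced chromosomes and that of haploid cells.

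In gene lists too, members with 1 or 2 of these markers lay close to those with none, and the distance was to members with 3 or more. Summed kinetochore and spindle genes had medians of 2813, 2741 and 1621 CPM in the classes with none, with 1 or 2, and with 3 or more, the last lower than the first in 15 of 15 libraries. Pachytene markers were at 1535, 1519 and 806, and synaptonemal complex and axis genes at 1913, 1938 and 1662. Division kinases and cyclins were at 2426, 2435 and 2218, and were higher with 3 or more than with none in 2 of 15 libraries. Acrosome genes, which serve the sperm's enzyme-filled cap, were at 2527, 2586 and 5075, higher in 15 of 15, although some of them were used for the split. Median UMIs per cell were 11466 with none, and were higher with 3 or more markers in 9 of 15 libraries. These are descriptions of cells from the same libraries, with no test.

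**Figure D1:**
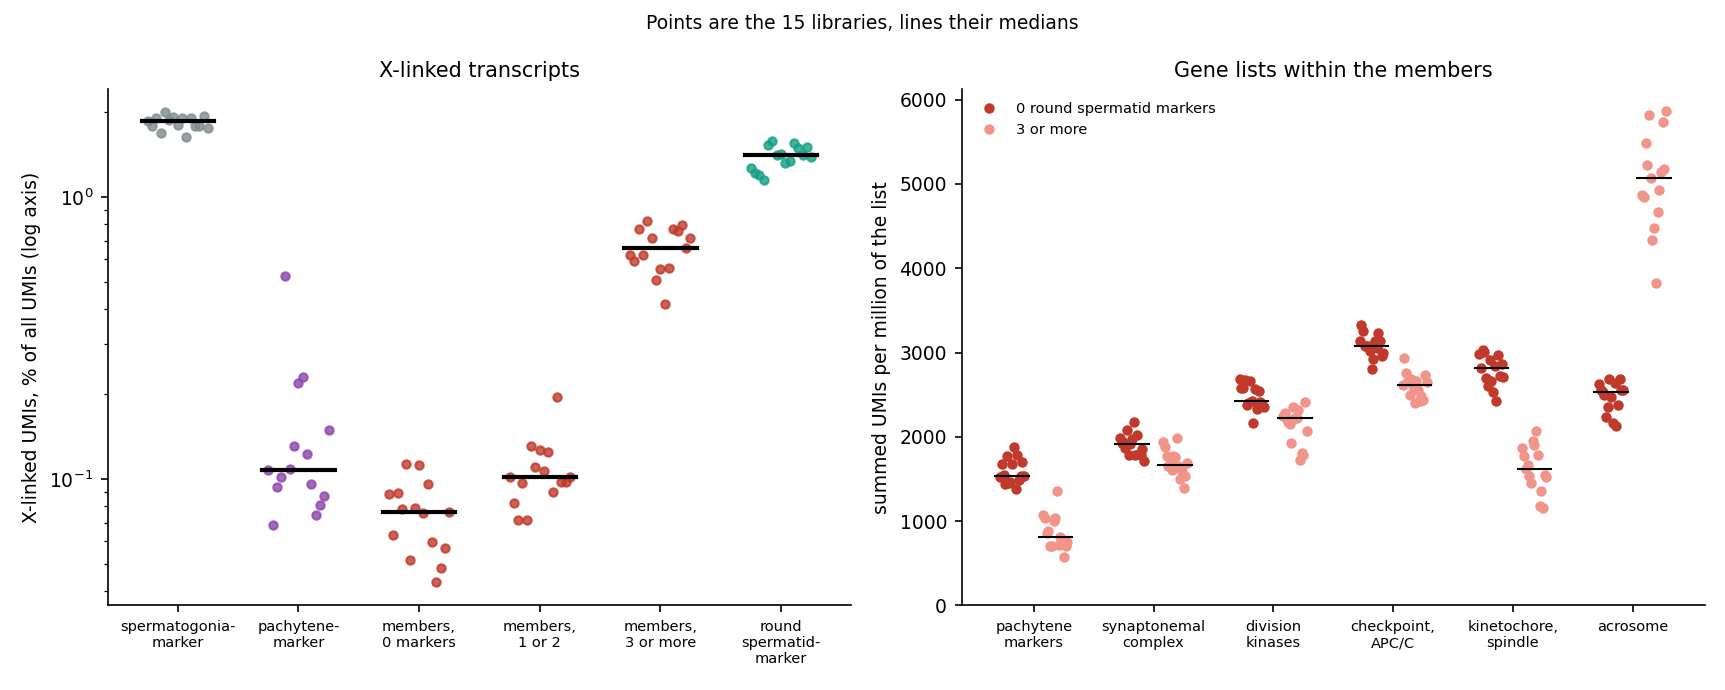
X-linked share of UMIs (left, log axis) in members split by the number of round spermatid markers and in 3 neighbouring cell sets, and summed CPM of 6 gene lists in members with 0 or with 3 or more of these markers (right). Each point is 1 of 15 libraries and lines are medians: the X-linked median is 0.0763% with no marker and 0.657% with 3 or more.

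The share of members with 3 or more round spermatid markers was 28.6%, 37.4% and 58.3% in the R libraries, against 10.6% to 26.9% in the other 12. After thinning, the R values were 8.31% to 13.3% and overlapped the others (2.26% to 10.8%). The thinned cells were members chosen at full depth, and a difference in this share was not tested.

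The share of kept cells that were members was higher in T. It was 12.4%, 16.8% and 8.76% in the T libraries, 7.46%, 4.41% and 5.67% in VC-T, and 4.54%, 3.04% and 5.26% in UC. All 3 T values lay above all 6 controls, with 12.7% ± 4.04 (SD, n = 3) against 5.06% ± 1.48 (n = 6) and an exact two-sided permutation p of 0.0238, which is the smallest this design allows. Adjusted over the 8 single-value tests it was 0.0635 and did not pass the 0.05 threshold. After thinning, VC-T replicate 1 (3.50%) lay among the T libraries (2.97% to 4.02%) and the other controls at 0.508% to 1.15% (exact permutation p = 0.0714). Such a share also moves with the number of other cells, and beside pachytene-marker cells the order was different: members were 36.8, 33.5 and 22.5 of every 100 member and pachytene-marker cells in T, a mean of 30.9 ± 7.50 (SD, n = 3), against 42.6 ± 11.4 in the 6 controls (exact permutation p = 0.167). After thinning this difference of -11.6 was -4.68 (exact permutation p = 0.143).

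In R the share of kept cells was 4.92%, 5.71% and 5.21%, within the range of its 6 controls (3.04% to 7.07%; exact permutation p = 0.5). Of every 100 member and pachytene-marker cells, members were 52.7, 59.9 and 71.9 in R, above the highest control at 51.1, with a difference of 20.9 (exact permutation p = 0.0238, adjusted 0.0635). R members were also deep, at medians of 18410.5, 17652 and 30590.5 UMIs per cell against at most 17400 in its controls (exact permutation p = 0.0238, adjusted 0.0635). After thinning the difference in members per 100 was -0.826 (exact permutation p = 0.952), so it did not hold at 2000 UMIs per cell. Thinning left 32, 36 and 69 members in R and 12 to 73 in its control libraries. Among cells with at least 5000 UMIs, a limit that does not match depth, the difference was 21.4 (exact permutation p = 0.0238). The part of depth in this difference was not tested further.

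T members had medians of 8113.5, 7487.5 and 5770 UMIs, against 4770.5 in VC-T replicate 1 and 10873.5 to 27578 in the other 5 controls (exact permutation p = 0.0952 over all 6, and 0.0357 without that library). The X-linked share of member UMIs was 0.197% ± 0.0387 (SD, n = 3) in T against 0.217% ± 0.0470 (n = 6; exact permutation p = 0.571), and 0.273% ± 0.0448 in R against 0.221% ± 0.0543 (exact permutation p = 0.214). No difference in the X-linked share was detectable in either comparison.

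**Figure D2:**
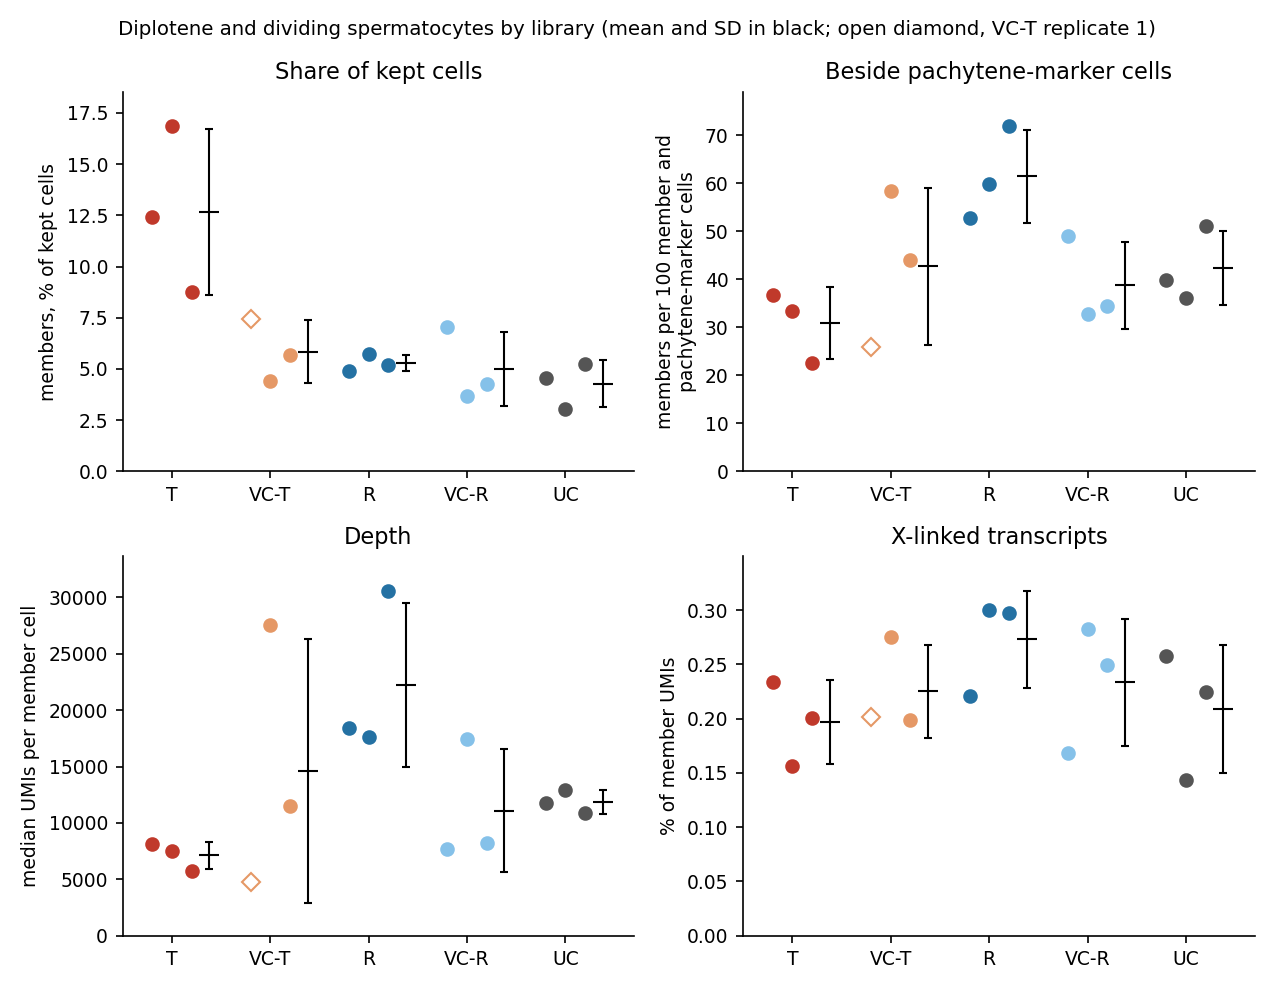
Members as percent of kept cells, members per 100 member and pachytene-marker cells, median UMIs per member, and X-linked percent of member UMIs, by group. Points are libraries and black marks are mean and SD (n = 3 per group): T lies highest in the share of kept cells (8.76% to 16.8%), and R lies at 52.7 to 71.9 in members per 100, a range that also holds VC-T replicate 2 at 58.4.

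Gene levels were compared by summing member UMIs per library and fitting edgeR's quasi-likelihood model to 14 libraries and 12497 genes. A call needed an adjusted p (Benjamini-Hochberg) under 0.05 together with a fold change over 2. Levels below are CPM scaled by edgeR's TMM factors. T against UC gave 334 called genes (2.67% of those tested), 88 higher (0.704%) and 246 lower (1.97%). T against VC-T gave 239 (1.91%), 63 higher (0.504%) and 176 lower (1.41%). The VC-T arm held 2 libraries in this fit, and the count was 115 with VC-T replicate 1 included, and 136, 111, 135 and 126 without T replicate 1, T replicate 2, VC-T replicate 2 and VC-T replicate 3. These comparisons share the T libraries, and 41 genes were called higher and 133 lower in both, which is 52.1% of the UC calls and 72.8% of the VC-T calls. The balance of higher and lower calls depended on the processing. With free RNA subtracted, 150 genes were higher and 38 lower against UC, and 131 higher and 31 lower against VC-T. Without members that held 3 or more round spermatid markers, 131 were higher and 231 lower against UC, and 197 higher and 214 lower against VC-T.

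Most genes called lower lay under the median of an estimate of free RNA that varied widely between libraries. In each library, late spermatid transcripts in spermatogonia-marker cells gave an estimate of free RNA, with a median of 0.204 of the level in all kept cells (0.0474 to 0.505 over libraries, and 0.271, 0.0487 and 0.0768 in UC). It rested on 544 such cells, 9 to 80 in a library. Of the 9 late spermatid genes it used, 8 were themselves called lower against UC. The median over libraries is called the free RNA ratio here. Of the 246 genes lower against UC, 211 (85.8%) lay under that ratio in UC members, against 8.24% of all genes tested, and VC-T replicate 1 was nearer T than the controls for 190. Of the 41 genes higher in both comparisons, 41 lay above the ratio, as did 21 of the 133 lower ones. With the ratio of UC replicate 1, 2 or 3 in its place, 40, 41 and 41 of the higher genes lay above it, and 19, 128 and 58 of the lower ones, so the set of lower genes rests on the ratio taken. The 62 genes above the median ratio are described first.

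**Figure D3:**
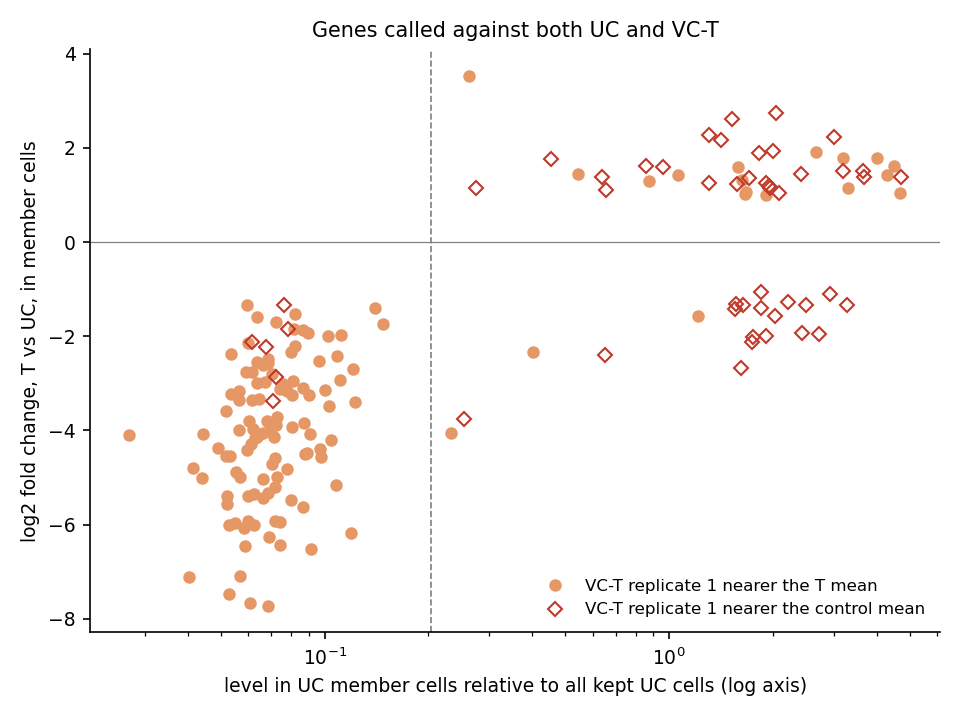
Each point is a gene called in T against both UC and VC-T, placed by its level in UC members relative to all kept UC cells (log axis, dashed line at the free RNA ratio of 0.204) and its log2 fold change in T against UC. To the right of the line 41 genes are higher and 21 lower, and 112 lower genes lie to the left, for 106 of which VC-T replicate 1 is nearer the T mean.

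Adgrb3, a gene higher in T that encodes an adhesion G protein-coupled receptor (chromosome 1, 25067476 to 25829707, minus strand, GRCm38), was at 56.3, 54.1 and 70.7 CPM in T, at 25.2 in VC-T replicate 1, and at 10.6 to 20.1 in the other 11 libraries. It rose by a log2 fold change of 2.27 ± 0.22 (SE) against UC (adjusted p = 1.2e-05) and 1.81 against VC-T. No other library reached the T levels. Idh1, the cytosolic isocitrate dehydrogenase that makes NADPH (chromosome 1, 65158616 to 65186500), was at 24.7, 21.4 and 23.4 in T and at 4.22 to 7.85 elsewhere, VC-T replicate 1 included at 6.72, with a log2 fold change of 2.16 ± 0.23 (adjusted p = 2.4e-05).

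Epha7, an ephrin receptor tyrosine kinase (chromosome 4, 28813131 to 28967499), was at 82.0, 70.1 and 88.8 in T and at 22.0 to 39.2 in the other 12 libraries (log2 fold change 1.38 ± 0.18, adjusted p = 0.00019). Pgf, a growth factor of the VEGF family (chromosome 12, 85166635 to 85177790), was at 29.1, 26.7 and 24.03, at 15.6 in VC-T replicate 1 and at 4.33 to 11.8 elsewhere (1.62 ± 0.22, adjusted p = 0.00024). The 3 T libraries stood apart from all others in both genes. Rdm1, a RAD52-motif protein, was at 25.2, 21.2 and 24.7 in T and at 7.72 to 13.4 elsewhere (1.20 against UC, 1.40 against VC-T). Gm49442 was at 24.7 to 26.7 in T and at 2.53 to 11.7 elsewhere (1.89 against UC). Vmn2r60, of a vomeronasal receptor family whose near-identical copies make its counts uncertain, was at 15.4 to 17.0 in T and at 1.21 to 8.16 elsewhere (2.74 against UC).

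Some genes passed more strongly against 1 control group. Abcg8, a sterol transporter subunit, rose by 1.43 against UC and 3.21 against VC-T, and Gp5, a platelet glycoprotein gene, was called against VC-T alone (2.06, and 0.89 against UC). Jakmip2 was called against UC alone (1.29, and 0.63 against VC-T with adjusted p = 0.059). Further genes called higher in both, chosen after their values were seen, were Rgcc, a cell cycle regulator (1.50 against UC), Fadd, the death receptor adaptor (1.44), Epha3, another ephrin receptor (1.62), Fgf12 (1.10), Exph5 (1.04), Pou3f3, a POU-domain factor (1.78), and Utf1, a chromatin protein of undifferentiated cells (2.60, at 3.76 to 5.34 CPM in T and at most 1.34 elsewhere).

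Genes lower in T above the free RNA ratio were fewer. 4930478M13Rik (chromosome 15, 100105234 to 100108161) was at 6.63, 5.08 and 4.67 in T and at 29.7 to 53.6 in the other 12 libraries, VC-T replicate 1 at 34.9, and fell by 2.67 on the log2 scale (SE 0.21, adjusted p = 2.9e-06). Gm32975 (chromosome 8) was at 3.72 to 4.67 in T and at 10.1 to 23.6 elsewhere (-1.95 against UC, -2.04 against VC-T). These genes lacked overlap between T and all other libraries.

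Named after their values were seen, the following lower genes have known roles. Paics, an enzyme of purine synthesis (chromosome 5, 76951307 to 76967509), was at 12.1, 17.3 and 12.0 in T and at 29.9 to 39.9 elsewhere, VC-T replicate 1 being the highest (-1.27 ± 0.17, adjusted p = 0.00024). Pax9, a paired-box transcription factor (chromosome 12, 56691767 to 56712822), was at 2.43, 3.01 and 0.667 in T and at 6.53 to 18.1 elsewhere (-1.99 ± 0.36, adjusted p = 0.0027). Decr1, a mitochondrial enzyme of unsaturated fatty acid oxidation, fell by 2.01 and Me3, the mitochondrial malic enzyme, by 1.39. Kcnn3, a calcium-activated potassium channel, fell by 1.41, Cldn3, a tight junction protein, by 2.12, and the transcripts Gm50218 and 4930556C24Rik by 1.34 each.

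**Figure D4:**
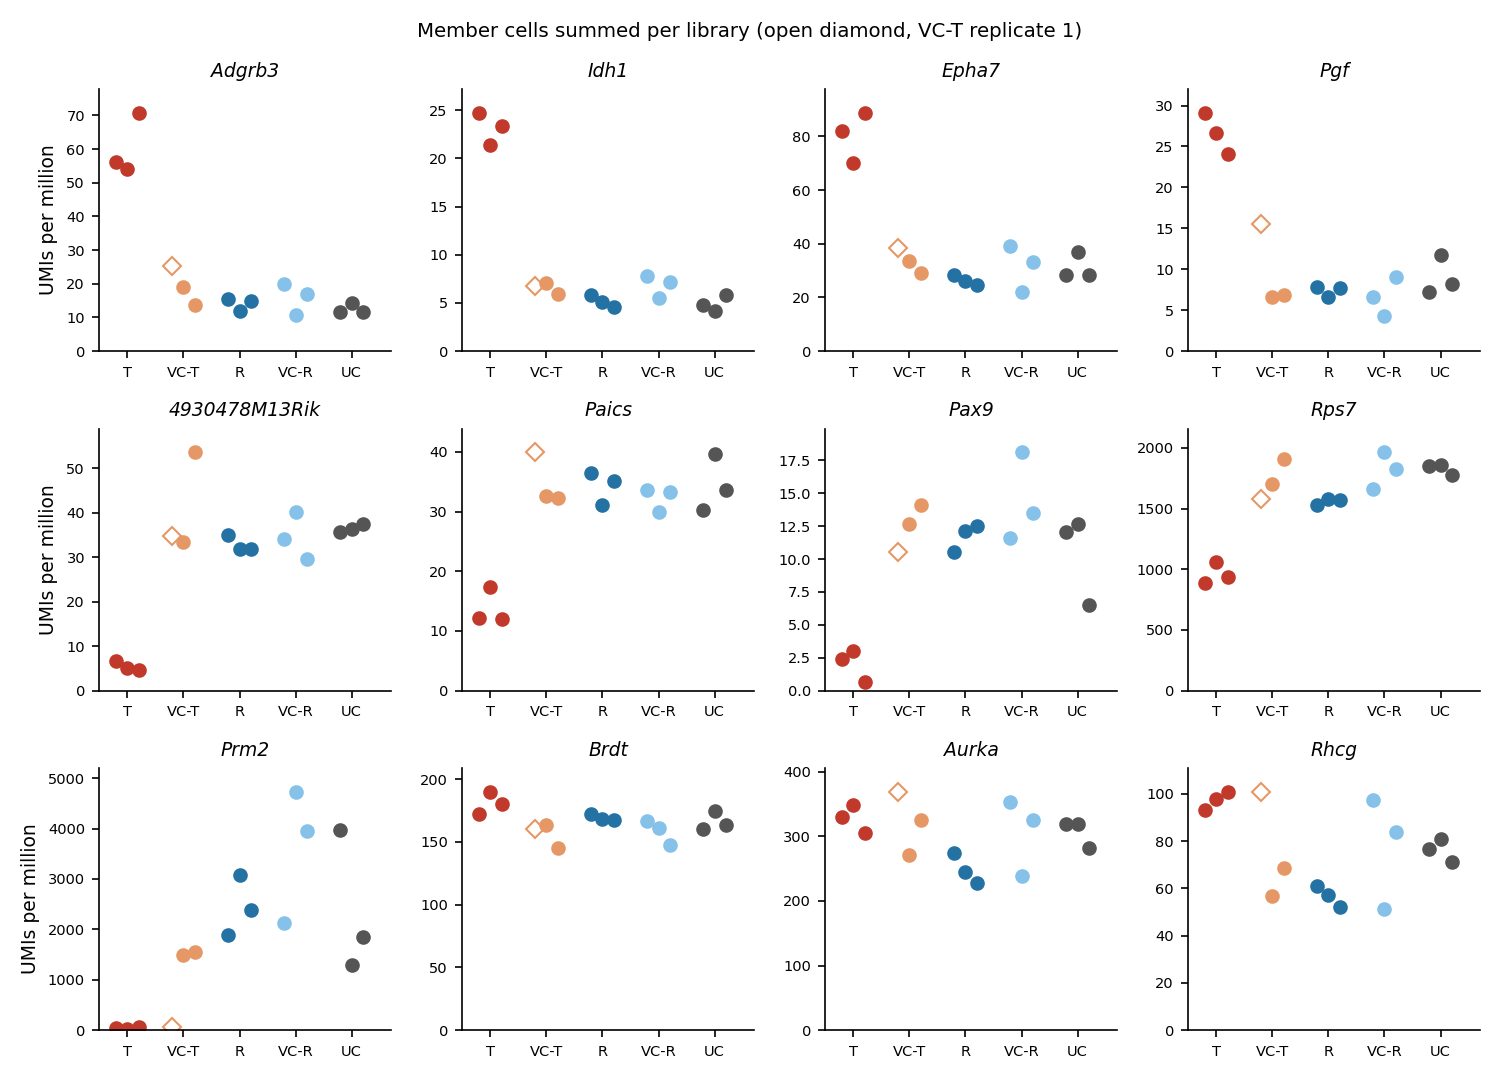
CPM (TMM-scaled) of 12 genes in summed members of each library, by group, with VC-T replicate 1 as an open diamond. Adgrb3, Idh1, Epha7 and Pgf are highest in the 3 T libraries, 4930478M13Rik, Paics, Pax9 and Rps7 are lowest there, Prm2 is low in T and in VC-T replicate 1, and Brdt overlaps among the groups.

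Over the 41 higher genes the T libraries stood apart from all 12 others for 37 (they lay above all others for 2.58% of all genes tested), and all 3 R libraries were nearer the controls for 36. VC-T replicate 1 was nearer the controls for 25 and nearer T for 16. Of the 21 lower genes, T stood apart from the 12 others for 19 (below all others for 3.11% of all genes tested), R was nearer the controls for 19, and VC-T replicate 1 was nearer the controls for 18. The calls chose these genes for their difference in T, and nothing is read from these counts. The R libraries shared the fit that made the calls, and VC-T replicate 1 was outside it. Among the genes named above, leaving out a library never ended the call of Adgrb3, Idh1, Epha7, Pgf, Rdm1, Gm49442, Gp5, Jakmip2, 4930478M13Rik, Gm32975, Paics, Pax9 or 4930556C24Rik. For Vmn2r60, Abcg8, Rgcc, Fadd, Epha3, Fgf12, Exph5, Pou3f3, Utf1, Decr1, Me3, Kcnn3, Cldn3 and Gm50218 at least 1 such omission ended a call in 1 or both comparisons, as for Pou3f3 against VC-T without T replicate 1 (1.34, adjusted p = 0.14).

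Promoters of genes that moved together above the free RNA ratio are shown as the bases from 250 before to 50 after the start, from RefSeq (GRCm38.p6). Of the 62 genes, 48 had an entry, 34 higher and 14 lower. Those of 2 higher genes and 2 lower genes follow, printed 5′ to 3′ on the gene's strand, with matches to 4 searched motifs in capitals. These were the cAMP response element TGACGTCA, the E-box CACGTG, the TATA box with the letters TATAAA, and the CCAAT box, each on both strands and without overlap in the windows shown. They lie at chr1:25829658-25829957 (minus), chr4:28812881-28813180 (plus, 1 of 2 listed starts), chr5:76951052-76951351 (plus) and chr12:56695221-56695520 (plus), in that order. The RefSeq start of Pax9 lies inside the GENCODE span given above, downstream of its first base, so this window is not around the GENCODE start.
Adgrb3: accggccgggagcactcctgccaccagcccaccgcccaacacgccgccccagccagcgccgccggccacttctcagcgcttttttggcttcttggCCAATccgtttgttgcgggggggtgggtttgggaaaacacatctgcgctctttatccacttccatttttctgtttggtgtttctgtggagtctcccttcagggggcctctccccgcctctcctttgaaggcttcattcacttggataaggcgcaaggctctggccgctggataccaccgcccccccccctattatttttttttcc
Epha7: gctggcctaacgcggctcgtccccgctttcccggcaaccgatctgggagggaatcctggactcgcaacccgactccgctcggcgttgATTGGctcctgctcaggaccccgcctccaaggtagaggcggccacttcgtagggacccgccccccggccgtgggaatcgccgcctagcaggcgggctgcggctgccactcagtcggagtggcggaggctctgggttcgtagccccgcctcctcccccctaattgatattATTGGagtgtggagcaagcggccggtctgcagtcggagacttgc
Paics: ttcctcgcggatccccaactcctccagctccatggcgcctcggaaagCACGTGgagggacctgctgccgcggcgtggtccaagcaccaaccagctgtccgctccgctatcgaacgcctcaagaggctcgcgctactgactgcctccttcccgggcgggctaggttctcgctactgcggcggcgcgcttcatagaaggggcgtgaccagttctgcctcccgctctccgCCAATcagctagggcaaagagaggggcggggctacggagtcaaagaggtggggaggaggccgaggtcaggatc
Pax9: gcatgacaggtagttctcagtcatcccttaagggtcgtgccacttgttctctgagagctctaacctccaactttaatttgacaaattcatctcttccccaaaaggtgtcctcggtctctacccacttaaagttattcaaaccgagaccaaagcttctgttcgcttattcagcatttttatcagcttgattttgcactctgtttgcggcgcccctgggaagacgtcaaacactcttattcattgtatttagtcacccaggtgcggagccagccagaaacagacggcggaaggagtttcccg

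The Epha7 and Paics windows were rich in G and C (67.0% and 65.7%, with 28 and 27 CpG), that of Pax9 was not (47.0%, 11 CpG), and the Adgrb3 window lay between (59.0%, 16 CpG). The CCAAT box was found in Adgrb3, in Epha7 as ATTGG on the other strand, and in Paics, which also held an E-box, whereas none of the 4 motifs was in the Pax9 window. Among higher genes 16 of 34 windows (47.1%) held a CCAAT box and among lower genes 2 of 14 (14.3%), against 39.4% of 9420 tested genes and 37.9% of 27025 RefSeq genes. The E-box was in 5.88% and 14.3%, against 9.93% of tested genes, the TATA box in 8.82% and 7.14%, against 7.65%, and the cAMP response element in none, against 3.45%. A match is a run of letters and was not tested as a site.

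Transcripts of late spermatids were lower in members of T, and low in VC-T replicate 1 as well. Of 5 late spermatid genes that the choice of members did not use, 4 were called lower against UC (median log2 fold change -1.54) and 2 against VC-T (median -1.04), where 1.97% and 1.41% of all genes were lower and the medians of all genes were 0.0043 and -0.01. Tssk6, a testis-specific kinase, was at -4.39 against UC. The protamine and transition protein genes, whose summed share the choice limits to under 10%, are given as description. Prm2, a protamine that packs sperm DNA, was at 46.9, 13.9 and 72.1 CPM in T, at 52.96 in VC-T replicate 1, and at 1292 to 4729 in the other 11 libraries. Its log2 fold change was -5.93 against UC, that of Prm1 -5.43, and those of the transition protein genes Tnp2 and Tnp1 -5.03 and -3.81. Among other called genes, Car2, a carbonic anhydrase, fell by 7.10, and 1700012A03Rik, 1700015G11Rik, Yjefn3 and 1700027A15Rik by 5.47, 3.93, 3.40 and 3.26. UC members held all of these at 0.0567 to 0.122 of their level in all kept UC cells. That range lay under the free RNA ratio and above that of UC replicate 2 (0.0487), and it spanned that of UC replicate 3 (0.0768). With free RNA subtracted the sign turned for Prm1 (9.15), Tnp1 (9.16) and 1700027A15Rik (8.65), the controls being set near 0, so the direction in these cells depends on the treatment of free RNA.

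Of 20 sperm tail genes, 5 were called lower against UC and 2 (Akap4 and Tssk6) against VC-T, and none higher, where 1.97% and 1.41% of all genes were lower. The 5 included Akap4 of the fibrous sheath (-1.34), Smcp of the mitochondrial capsule (-1.54) and Gapdhs, the sperm glycolytic enzyme (-1.60), each under the free RNA ratio. With free RNA subtracted their signs turned (7.28, 10.88 and 10.17), as did that of H1fnt below (7.11). Among 13 histone variant genes, H2al2a (-3.22) and H1fnt (-1.95), both of condensing spermatids, were called lower against UC, and H2al2a alone against VC-T. Among 14 heat shock genes Hspa1l (-1.97 against UC) was called lower in both. None of 22 acrosome genes was called by edgeR (4 at an unadjusted p under 0.05, and 0 called by DESeq2), and none of 36 axoneme genes other than Dnaic2 (5 and 0). Whatever the fold, 2 acrosome genes and 1 axoneme gene were lower against UC at an adjusted p under 0.05 in edgeR. Against VC-T these counts were 0 and 1. That threshold was passed by 5.03% and 3.22% of all genes.

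Sertoli transcripts differed against VC-T. Of 6 tested Sertoli markers Rhox8, Aard and Defb19 were called lower against VC-T, by 3.31, 2.46 and 2.31 (1.41% of all genes were lower). DESeq2 called 2 of the 3, and with free RNA subtracted Aard (0.24) and Defb19 (0.89) turned sign. By edgeR none was called against UC (3 at an unadjusted p under 0.05, 0 by DESeq2). All 8 Sertoli markers summed to 12.7 to 86.6 CPM in T members, 9.28 in VC-T replicate 1, 166 and 105 in the other VC-T libraries, and 42.2 to 67.9 in UC. Their part in the T against VC-T calls was not tested.

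Genes of meiosis and division, taken from lists of their pathways, were not called. With the rule's own genes left out, none of 19 division kinases and cyclins was called in T against UC (3 at an unadjusted p under 0.05, 0 by DESeq2), with a median log2 fold change of 0.05, and none against VC-T (4 and 0). Likewise none of 22 checkpoint and anaphase-promoting complex genes (1 and 0 against UC), 23 kinetochore and spindle genes (2 and 0; median 0.11), 11 synaptonemal complex and axis genes (1 and 0; median 0.13), 10 cohesin genes (1 and 0) and 13 crossover genes (0 and 0) was called. Nor were 15 piRNA pathway genes (4 and 0) or 18 genes of mRNA storage and translation control (2 and 0). Whatever the fold, 1 division kinase or cyclin gene was lower against UC at an adjusted p under 0.05 in edgeR (0.043), which 5.03% of all genes passed. A p that misses the threshold does not show that levels were equal.

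Brdt, Brd2 and Brd3, whose proteins JQ1 binds, were not called. Brdt was at 172, 190 and 180 CPM in T, at 160, 164 and 145 in VC-T, and at 160, 175 and 163 in UC. Its log2 fold change was 0.13 ± 0.08 against UC (adjusted p = 0.46) and 0.22 against VC-T (adjusted p = 0.22). Brd2 and Brd3 were at -0.03 and -0.02 against UC (adjusted p of 0.90 and 0.94).

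Cytoplasmic ribosomal protein genes were lower in T by less than 2-fold. Of 77 tested, 64 had a negative log2 fold change against UC and 76 against VC-T, 26 and 38 were lower at an adjusted p under 0.05 whatever the fold, and 2 and 0 were higher. That p threshold alone was passed by 5.03% and 3.22% of all genes. Their medians were -0.25 and -0.40, against 0.0043 and -0.01 over all genes, and Rpl39 alone also passed the fold limit, against VC-T. Rps7, a small subunit protein named after its values were seen, was at 885, 1064 and 940 CPM in T and at 1533 to 1964 in the other 12 libraries, with a log2 fold change of -0.93 ± 0.08 (adjusted p = 3.6e-06) and without overlap. Rpl7a followed at -0.77 ± 0.09, and Rpl17 at -0.57 ± 0.08. Genes of this family have many processed copies, whose reads the counting may have split. With cells thinned to 2000 UMIs 1 and 2 genes were lower at an adjusted p under 0.05, and with VC-T replicate 1 included 20 and 9, while the median stayed negative in all 27 settings.

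Some calls rested on UC alone. Hsf2, a heat shock factor of spermatocytes, was called higher against UC (1.07, adjusted p = 0.017) but not against VC-T (0.22, adjusted p = 0.68), UC being at 5.44 to 9.62 CPM and every other library at 11.7 or above. Mitochondrially encoded mt-Nd4l had log2 fold changes of 1.56 against UC and 0.68 against VC-T (adjusted p = 0.069), with T at 53.4 to 66.6, UC at 14.5 to 25.8 and the rest at 27.9 to 46.8. Of 13 mitochondrially encoded genes it and mt-Atp8 (1.32 against UC, 0.77 against VC-T with adjusted p = 0.12) were called higher against UC, where 0.704% of all genes were, and none against VC-T (7 at an unadjusted p under 0.05, 0 by DESeq2).

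Of 238 X-linked genes, 1 was called higher and 12 lower against UC (5.04% lower, against 1.97% of all genes), with a median log2 fold change of -0.02 (all genes, 0.0043). Against VC-T 0 were higher and 17 lower (7.14%, against 1.41%), with a median of -0.23 (all genes, -0.01). Of the lower ones, 11 of 12 and 10 of 17 lay under the free RNA ratio in UC members, among them Akap4.

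In R, 6 wk after the last dose, 2 genes were called against UC (0.016% of those tested) and 0 against VC-R (0.0%). The 2 were Amotl1, which encodes an angiomotin-like junction protein (1.14), and mt-Nd4l (1.11), both at adjusted p = 0.048 in edgeR, and DESeq2 called 0 in either comparison. Whatever the fold, 7 genes passed the adjusted p threshold against UC in edgeR and 100 in DESeq2 (12 higher and 88 lower). At an unadjusted p under 0.05 there were 1685 and 991 genes. Amotl1 was at 19.4, 22.0 and 23.7 CPM in R, at 17.6 to 22.5 in VC-R and at 6.74 to 11.3 in UC, so that UC again lay below both. The 77 ribosomal protein genes had a median of -0.18 against UC, 62 of them negative and 0 at an adjusted p under 0.05 in edgeR (0.056% of all genes passed that threshold whatever the fold, 41 of the 77 had an unadjusted p under 0.05, and DESeq2 called 0). Against VC-R their median was -0.17, with 72 of 77 negative, 37 at an unadjusted p under 0.05 and 0 at an adjusted p under 0.05 in edgeR (DESeq2 called 0).

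**Figure D5:**
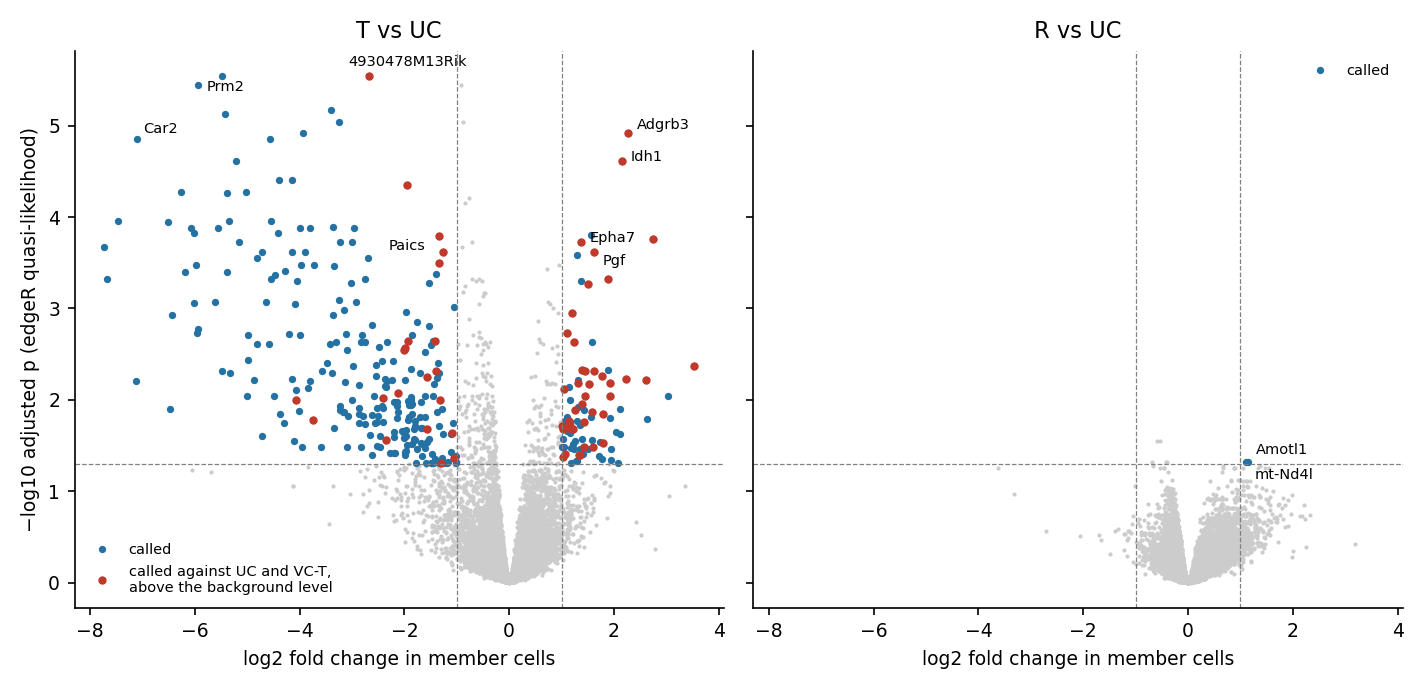
Log2 fold change and −log10 adjusted p of 12497 genes in members, T against UC (left) and R against UC (right). Blue or red points are called, red ones in both T comparisons and above the free RNA ratio, grey ones are not, and dashed lines mark the thresholds: 334 genes are called in T and 2 in R.

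The changes in T were compared with those in neighbouring cells by an edgeR interaction term with library as a block. Against pachytene-marker cells 0 of 13576 genes differed in their change from UC by the same thresholds (1022 at an unadjusted p under 0.05; DESeq2 was not run on this). In pachytene-marker cells of the same libraries 4930478M13Rik was at -2.55 and Adgrb3 at 2.03. Of the 62 genes above the free RNA ratio, 30 of 31 higher and 17 of 17 lower ones with a value there had the same sign. Fitted alone, pachytene-marker cells had 334 of 12149 genes called in T against UC and 709 against VC-T. Round-spermatid-marker cells had 2121 of 14733 and 2542. Against round-spermatid-marker cells 194 of 15430 genes differed, 145 with a higher and 49 with a lower change in members. Of the 62 genes above the free RNA ratio, 2 were among them: Adgrb3, which rose more in members (difference 1.46, adjusted p = 0.0096), and Fgf12 (difference 1.49, adjusted p = 0.00082), whose log2 fold change was -0.33 in round-spermatid-marker cells.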

How the data were processed

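Each of 15 libraries was made from the testis cells of 1 mouse. The deposited values are counts of UMIs for every gene in every barcode. Reads were mapped to mm10 by the authors, who counted with Cell Ranger (3.0.0 in their notes, 7.0.0 in the matrix headers), and whether intron reads were counted is not given in the sources used here. The members, gene lists and comparisons were chosen with earlier results of these data known.

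Cells and members were chosen by the stated rule in Python 3.11.15 (numpy 2.4.6, scipy 1.17.1, pandas 2.3.3). No doublets were removed. As an alternative the 5.4% of cells with the highest Scrublet score (scanpy 1.11.5) were removed, a set that held 1.80% to 7.98% of members. Member counts were summed per library and tested with edgeR 4.0.16 in R 4.3.3 (filterByExpr, TMM, quasi-likelihood test, 5 groups, VC-T replicate 1 left out as in the study), with Benjamini-Hochberg adjustment. DESeq2 1.42.0 was an alternative. Single values were compared by exact two-sided permutation over libraries. Positions came from GENCODE vM21 (GRCm38). The tests were checked on simulated data.

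Named were the 8 called genes of smallest adjusted p in each direction, called genes of the lists (up to 4 a list), BET genes, rule markers and 15 leading genes. Those named after their values were seen are said to be so, and 1 item is not reported here. Depth was 9673587 to 98724982 UMIs per library, and intervals over so few libraries are wide. Thinning, stricter rules, another scaling, no low-count filter, left-out libraries, a replicate block and subtraction of free RNA were tried.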

Additional observations from a re-analysis of the deposited data

Results flagged for a closer look

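The median UMI count per member cell of VC-T replicate 2 was 27578, the highest of the 6 control libraries of T, and its gap to the next was 0.642 of their range. The limit for such a gap is Dixon's critical value, which about 1 of 20 groups pass by chance. The members of this library were also among those with the most Sertoli transcripts, at a summed 166 CPM, and without it 135 genes were called in T against VC-T, in place of 239.

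The change from UC differed between members and round-spermatid-marker cells for 194 genes in T and for 447 in R, by the interaction test. In T the genes of smallest adjusted p, named by that order, were Herpud1, of the endoplasmic reticulum stress response (difference 3.40, with -3.72 in round-spermatid-marker cells), Eif4e, the cap-binding factor (difference 1.70, with -1.73), Eif4h (difference 1.40, with -1.54) and Rasa3 (difference 2.39, with -2.55). For Herpud1 and Eif4e the change in pachytene-marker cells differed from that in members by 0.18 and 0.23, with adjusted p of 0.86 and 0.68. In R, 398 of the 447 genes had the lower change in members. Fitted alone, round-spermatid-marker cells of R had 1608 genes called higher and 21 lower against UC (14733 tested), where members had 2 called, both higher.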

How the results depend on the processing

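With 3 libraries a group, differences smaller than the spread between libraries could not be resolved, and shallow cells were less readily chosen as members. The alternative of at least 5000 UMIs per cell and the comparison with neighbouring cells were chosen after seeing the data. Of the 90 results for named genes and lists, the call was lost for 7 with DESeq2, 2 with DESeq2 size factors, 1 with no filter on low counts, 8 with VC-T replicate 1 included, 10 with the replicate block, 9 with 4 of 6 markers, 5 each with doublets removed, protamine shares under 2% or 5000 UMIs, and 2 without members that held 3 or more round spermatid markers. With free RNA subtracted 10 lost the call and 13 turned sign, and after thinning 1 of the 16 with a value lost it and 2 counts moved. For the changes below the cause was not tested, apart from those due to fewer libraries or genes.

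The share of kept cells in T was 7.61 percentage points above its controls. The difference was 6.83 against VC-T alone and 8.39 against UC alone, where the exact permutation test of 3 against 3 libraries cannot go under p = 0.1, 2.15 after thinning, and 5.53 to 9.57 with a library left out. In R the difference of 0.636 turned to -0.295 after thinning and to -2.67 at 5000 UMIs (0.315 to 1.12 with a library left out). Members per 100 member and pachytene-marker cells differed by -11.6 in T, by -4.68 after thinning, by 1.72 at 5000 UMIs and by -15.0 to -7.40 with a library left out. In R they differed by 20.9, by 22.8 against VC-R alone and by 19.1 against UC alone. That difference was -0.826 after thinning, 21.4 at 5000 UMIs and 15.8 to 25.3 with a library left out. Median UMIs per member differed by -6113 in T (-7806 without VC-T replicate 1, -7806 to -3244 over the libraries left out) and by 10741 in R (11132 against VC-R, 10350 against UC, 6555 without R replicate 3 and up to 13024). The X-linked difference in T was -0.0199 percentage points, 0.00451 with protamine shares under 2% and 0.000306 without T replicate 2, the upper end of -0.0382 to 0.000306.

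With no filter on low counts edgeR's prior degrees of freedom were infinite, so that a gene's own spread between libraries was not used, and calls made without the filter are not comparable with the others. Of the counts of called genes, T against UC (334) was 522 of 25910 genes with no filter on low counts, 206 with protamine shares under 2% (82 higher and 124 lower), 12 of 2089 genes after thinning, and 188 (150 higher and 38 lower) with free RNA subtracted. With a library left out it was 188 (without UC replicate 1) to 383, with 194 without T replicate 2. T against VC-T (239) was 162 with free RNA subtracted (131 higher and 31 lower), 498 with no filter, 115 with VC-T replicate 1 included, 411 (197 higher and 214 lower) without members that held 3 or more round spermatid markers, 8 after thinning and 111 to 293 with a library left out (136, 111, 135 and 126 without T replicate 1, T replicate 2, VC-T replicate 2 and VC-T replicate 3). R against UC (2) was 93 with no filter, 20 with protamine shares under 2%, 7 without members that held 3 or more round spermatid markers, and 0 with VC-T replicate 1 included, DESeq2, DESeq2 size factors, doublets removed, 4 of 6 markers, thinning, free RNA subtracted or 5000 UMIs. With a library left out it was 0 to 13 (13 without VC-R replicate 1, 8 without T replicate 1, 7 without VC-T replicate 2 or 3, 5 without VC-R replicate 2). R against VC-R (0) was 12 with no filter and 0 with any library left out. Ribosomal protein genes lower in T numbered 14 to 38 against UC and 6 to 56 against VC-T with a library left out, the 6 being without VC-T replicate 3.

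With free RNA subtracted the controls were set near 0 for transcripts under the free RNA ratio, so fitted log2 fold changes are no bound, and these changed sign: 1700027A15Rik (8.65 in both comparisons), Akap4 (7.28 in both), Prm1 (9.15 in both), Tnp1 (9.16 in both), Gapdhs (10.17), Smcp (10.88), H1fnt (7.11), Defb19 (0.89) and Aard (0.24).

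Replicate numbers of the groups did not pair the libraries: over 26 same-numbered pairs the correlation of deviations was -0.328 to 0.418 (median -0.0317), and 5 were over 0.1. With the replicate number as a block, 282 genes were called in T against UC, 142 in T against VC-T, 0 in R against UC and 0 in R against VC-R.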
